A study of Mus musculus with 6 samples.

Results

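Semaphorins are secreted or membrane-bound guidance cues, plexins are their main receptors, and neuropilins are co-receptors that bind the secreted class 3 semaphorins. The 31 protein-coding genes of this signalling system were taken from RefSeq by symbol: every Sema gene named with a digit and a letter (20 genes), the A to D plexins (9 genes), and Nrp1 and Nrp2, out of 21887 protein-coding genes in all. Each gene was given the peaks that overlapped its body or the 10 kb on either side. The chromatin came from an immortalised mouse line of atrioventricular (AV) cushion mesenchymal cells, derived from H-2Kb-tsA58 transgenic animals, in which a temperature-sensitive large T antigen runs from the H-2Kb promoter. AV cushions are the swellings of the embryonic heart from which valves and septa form. All 6 libraries shared this line and passage 6, and each was made by ATAC-seq (a transposase cuts and tags accessible DNA) from 54000 cells. The cells had spent 48 h in 5.5 mM glucose (normal, 3 libraries) or 25 mM glucose (high, 3 libraries). The design asks whether glucose alters open chromatin.

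The deposited lists of normal-glucose replicates 1 and 3 held 24263 and 40350 peaks, and those of high-glucose replicates 1, 2 and 3 held 22156, 25020 and 22598. Normal-glucose replicate 2 held 66 peaks, none of them at these genes, and was left out under a minimum of 1000 peaks, so 2 normal-glucose and 3 high-glucose libraries were compared. In 5 libraries the peaks merged into 49048 regions, of which 151 lay at the 31 genes. The lists carry no read counts, so sequencing depth is unknown and a missing peak is not proof of closed DNA. Nothing in the labels says that replicates were separate cultures, so the spread between libraries may be technical. As a check of the cell type, 6 of 8 cushion markers and 4 of 4 general mesenchymal markers had a peak in all 5 libraries, against 0 of 5 endothelial and 0 of 4 heart muscle markers. Of the endothelial markers Pecam1 and Kdr had a peak in 4 libraries, and Cldn5 in 0. Of 3 blood markers Spi1 and Cd68 had one, and of 4 neuronal markers Tubb3. The window of 10 kb can take in a neighbour. Within 1 kb of a listed start, 3 of 6 cushion and 1 of 1 general mesenchymal markers had a peak in all 5. So did 0 of 3 endothelial, 0 of 4 heart muscle, 0 of 2 blood and 0 of 2 neuronal markers. Spi1 had no listed start. Over all protein-coding genes the shares were 53.2% in the gene or 10 kb either side and 38.5% at a start.

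Most class 3 semaphorins act through a neuropilin bound to a plexin, often an A plexin, while Sema3e can bind Plxnd1 directly. Membrane-bound semaphorins mostly bind plexins themselves: Sema4d binds Plxnb1, class 6 members bind A plexins, and Sema7a binds Plxnc1 and integrins. A plexin that has bound its ligand acts on small GTPases and the cytoskeleton, and in the heart Sema3c, Nrp1 and Plxnd1 are known for septation of the outflow tract.

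Promoter sequences of 6 genes are shown because a peak at the gene start was the most reproducible kind of open region in the family. For each class the start with the strongest peak in its weakest library was taken, and Sema3a stands for starts without a peak. Each run gives the 250 bases before the RefSeq start, 5′ to 3′ on the gene's strand, from RefSeq on GRCm38.p6 (the build whose coordinates are mm10). Capitals mark bases that lay under the peak in all 5 libraries. The positions are chr5:17574566-17574815 (plus strand) for Sema3c, chr7:80198338-80198587 (plus) for Sema4b, chr15:32244563-32244812 (plus) for Sema5a, chr1:62703067-62703316 (plus) for Nrp2, chr15:89180789-89181038 (minus) for Plxnb2 and chr5:13396534-13396783 (plus) for Sema3a.
Sema3c: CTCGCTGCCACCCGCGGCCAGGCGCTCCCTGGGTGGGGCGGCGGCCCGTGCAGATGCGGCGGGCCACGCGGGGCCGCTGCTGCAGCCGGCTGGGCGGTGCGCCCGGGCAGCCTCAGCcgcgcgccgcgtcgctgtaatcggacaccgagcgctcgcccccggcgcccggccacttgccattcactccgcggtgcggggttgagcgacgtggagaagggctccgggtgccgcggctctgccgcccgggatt
Sema4b: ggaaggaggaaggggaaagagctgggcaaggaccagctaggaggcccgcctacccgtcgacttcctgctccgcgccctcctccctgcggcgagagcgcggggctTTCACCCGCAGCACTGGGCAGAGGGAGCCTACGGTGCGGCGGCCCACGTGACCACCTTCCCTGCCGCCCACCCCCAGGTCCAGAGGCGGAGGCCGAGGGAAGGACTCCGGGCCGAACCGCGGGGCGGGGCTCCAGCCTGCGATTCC
Sema5a: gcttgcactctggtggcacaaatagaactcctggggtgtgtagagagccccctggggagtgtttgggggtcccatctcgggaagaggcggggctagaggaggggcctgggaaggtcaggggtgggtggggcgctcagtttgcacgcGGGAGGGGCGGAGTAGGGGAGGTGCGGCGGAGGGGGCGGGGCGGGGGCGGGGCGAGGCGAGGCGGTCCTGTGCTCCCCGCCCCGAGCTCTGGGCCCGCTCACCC
Nrp2: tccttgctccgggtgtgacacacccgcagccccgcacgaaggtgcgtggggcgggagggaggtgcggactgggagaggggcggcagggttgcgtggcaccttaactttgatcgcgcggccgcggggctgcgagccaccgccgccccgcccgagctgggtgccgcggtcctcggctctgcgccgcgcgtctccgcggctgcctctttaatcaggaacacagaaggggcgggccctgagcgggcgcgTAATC
Plxnb2: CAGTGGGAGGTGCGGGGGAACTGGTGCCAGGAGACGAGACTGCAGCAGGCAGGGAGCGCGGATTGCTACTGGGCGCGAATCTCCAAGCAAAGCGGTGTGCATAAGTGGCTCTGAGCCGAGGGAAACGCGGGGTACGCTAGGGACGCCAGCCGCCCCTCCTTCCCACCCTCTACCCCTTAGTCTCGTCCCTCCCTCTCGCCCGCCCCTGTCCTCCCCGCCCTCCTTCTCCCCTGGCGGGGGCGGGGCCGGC
Sema3a: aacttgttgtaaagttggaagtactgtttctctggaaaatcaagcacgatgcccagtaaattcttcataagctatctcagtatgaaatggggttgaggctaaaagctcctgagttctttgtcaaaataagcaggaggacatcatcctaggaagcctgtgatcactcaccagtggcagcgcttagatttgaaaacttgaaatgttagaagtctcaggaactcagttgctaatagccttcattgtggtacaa
At Plxnb2 all 250 bases lay under the peak of every library. At Sema4b, Sema3c and Sema5a 146, 117 and 104 bases did. In Nrp2 the peak sat just past the start, and 5 of these bases were covered in every library. The Sema3a start had 0 bases under any peak. That start is the one start RefSeq's table gave for Sema3a and lies far inside the annotated gene, so other starts of Sema3a were not analysed here.

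Of the 31 genes 21 (67.7%) had a peak in all 5 libraries, where 53.2% of all protein-coding genes did. Long genes have more room for a peak: their median length was 40.5 kb against 17.2 kb for all genes. Among windows over 150 kb (gene plus both flanks) 9 of 10 members were open in all 5 libraries, Plxnc1 being the exception, beside 65.3% of all genes of that size. Among windows of 50 to 150 kb 4 of 7 were, beside 66.6%, and under 50 kb 8 of 14, beside 46.4%. Per length there were 3.33 regions per 100 kb summed over the members and 3.39 over all genes. In all, 34 regions (22.5% of 151) were present in all 5 libraries, beside 25.1% of all regions.

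**Figure D1:**
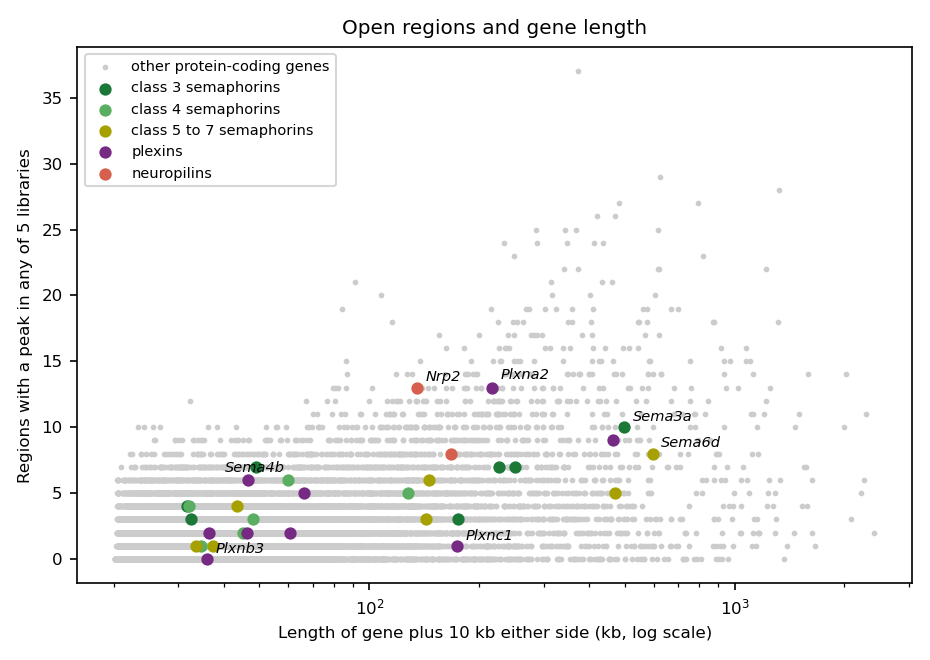
Number of regions with a peak in any of 5 libraries (vertical axis) against the length of each gene plus 10 kb either side (horizontal axis, kb, log scale), with members coloured by class and other protein-coding genes in grey. Nrp2 and Plxna2 had the most regions, 13 each, while Plxnc1 had 1 and Plxnb3 had 0.

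By role, 15 of 20 semaphorins and 6 of 11 receptors or co-receptors were open in all 5 libraries, a difference that was not tested. All 7 class 3 semaphorins had a peak in all 5 libraries, as did 4 of 6 class 4 and 4 of 7 class 5 to 7 semaphorins. Both neuropilins did, but of 9 plexins Plxna1, Plxna2, Plxna4 and Plxnb2 alone. The 10 members without a peak in at least 1 library were Sema4a, Sema4d, Sema5b, Sema6b, Sema7a, Plxna3, Plxnb1, Plxnb3, Plxnc1 and Plxnd1. Sema4d and its receptor Plxnb1, and Sema7a and its receptor Plxnc1, were among these 10. Plxnd1 was too, whereas Sema3e, which can bind it, was open in all 5 libraries. Pairs of ligand and receptor were not counted as a set or tested. Plxnb3 was the single member with no peak in any of the 5, a state shared by 27.6% of all genes.

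For 2 of the 21 open genes the call rested on something other than their own shared region. Sema4g, a transmembrane semaphorin, owed it to a single region at chr19:45006317-45006671, 2920 bp beyond the gene and at the starts of Mrpl43 and Twnk. Sema3a, the founding repulsive ligand, had peaks in every library but no one region in all 5. Its peak number was 3 and 8 in normal-glucose replicates 1 and 3, and 3, 4 and 4 in high-glucose replicates 1, 2 and 3. Those peaks fell in 10 regions over a 479 kb gene. The other 19 genes had at least 1 region in all 5 libraries away from any other gene's start in RefSeq's promoter table. That table gave a start for 17492 of 21887 protein-coding genes, so starts of the rest were not checked.

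**Figure D2:**
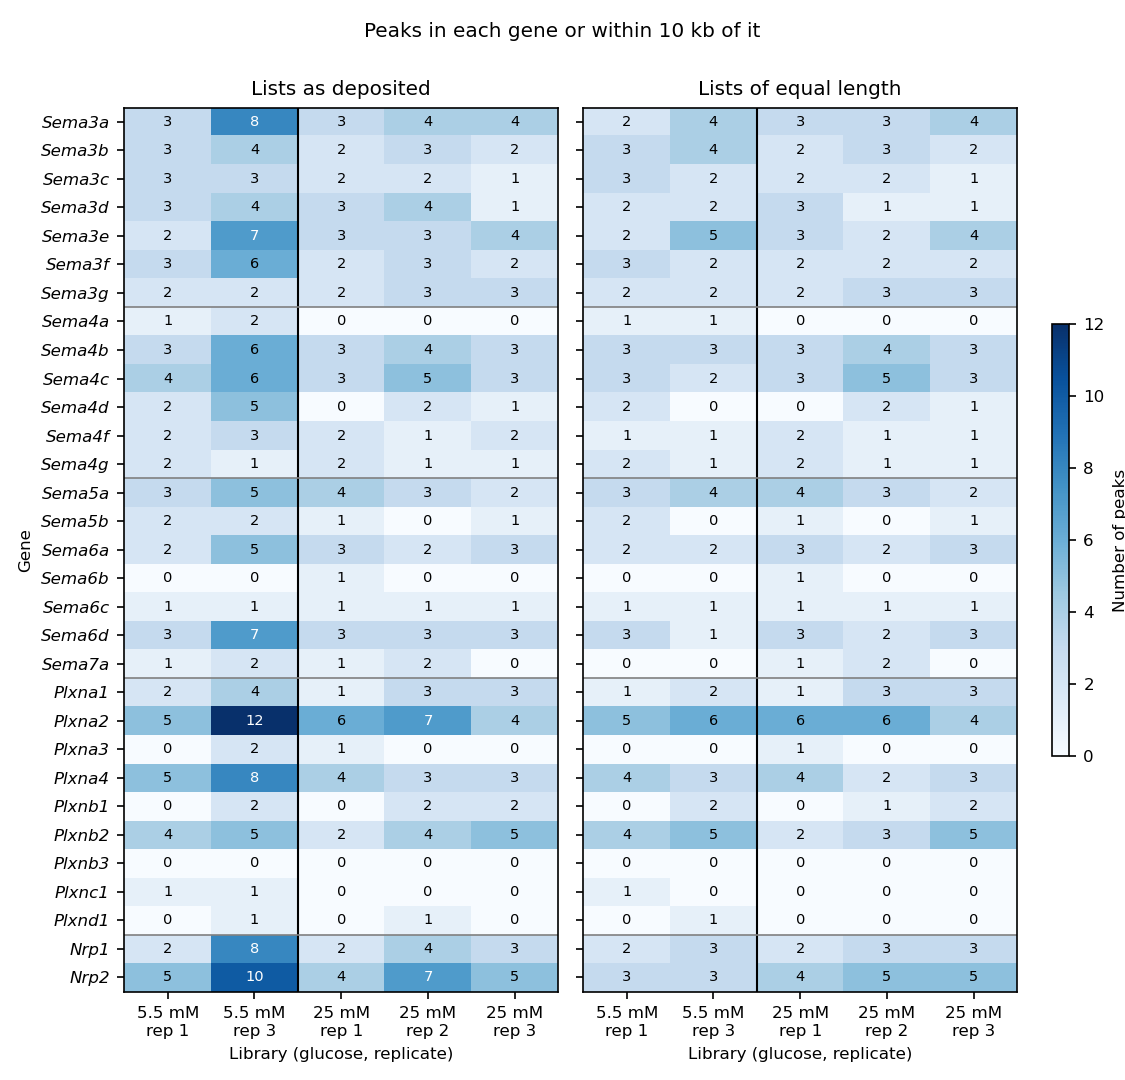
Number of peaks (colour and figure in each cell) in each of the 31 genes or within 10 kb of it, by library, with lists as deposited (left) and with every list shortened to 22149 peaks by the authors' −log10 p (right). The dark column of normal-glucose replicate 3 on the left, up to 12 peaks at Plxna2, pales to at most 6 on the right.

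At gene starts the family was mixed. RefSeq's promoter table gave 37 starts for 26 members; Plxna1, Plxna4, Sema3b, Sema3f and Sema6a are named only. Within 1 kb of a start 11 of 26 (42.3%) had a peak in all 5 libraries, beside 38.5% of 17492 protein-coding genes, and 8 had none in any, beside 46.1%. The 11 were Sema3c, Sema3d, Sema3e, Sema3g, Sema4b, Sema4c, Sema5a, Sema6c, Plxna2, Plxnb2 and Nrp2. The 8 without any were Sema3a, Sema4d, Sema4g, Sema5b, Sema6d, Plxnb3, Plxnc1 and Nrp1. For Sema4d, as for Sema3a, the listed starts lie far inside the annotated gene. A region 54 bp outside the edge of Sema4d from which it is read, chr13:51793732-51793840, had peaks in normal-glucose replicate 3 and high-glucose replicate 2. Whether that region lies at a start of Sema4d was not analysed. Between them stood Sema7a, Sema4f and Plxnb1 with a start peak in 3 libraries, Plxna3 in 2, and Sema4a, Sema6b and Plxnd1 in 1. The same 11 of 26 were counted with lists of equal length.

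The strongest start was that of Plxnb2, a receptor for class 4 semaphorins. Its peak at chr15:89180710-89181235 reached percentiles of 95.0 and 92.1 in normal-glucose replicates 1 and 3, and of 95.0, 98.5 and 95.9 in the 3 high-glucose lists (replicates 1, 2 and 3). Percentiles rank a peak within its own list by the authors' −log10 p, and lists of different length do not make them comparable between libraries. The authors' fold enrichment there was 12.6 and 11.6 in normal glucose and 13.0, 18.7 and 14.2 in high glucose. The percentiles meet at 95.0 in both conditions, whereas the 3 folds of high glucose all lie above the 2 of normal glucose. The fold is the authors' own value within each list, and this order was neither tested nor set beside that of all regions.

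Sema5a, which carries thrombospondin repeats and can attract or repel axons, came next at chr15:32244407-32244895. In the same order of libraries its percentiles were 94.6, 87.8, 87.9, 88.2 and 89.3. The RNA gene Snhg18 has a start within 1 kb of the same region, so the peak cannot be given to Sema5a alone. Sema6c, a ligand of A plexins, stood at 94.9, 96.8, 76.2, 79.6 and 71.1 at chr3:95160262-95160507. The percentiles were lower in the high-glucose lists, an order that was not tested, in a region that was the sole one at the gene.

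Sema4b, a transmembrane ligand of class 4, had a peak in all 5 libraries at both of its RefSeq starts. At chr7:80186801-80187221 its percentiles were 91.7 and 90.9 in normal glucose, and 96.0, 91.5 and 70.0 in high glucose. At chr7:80198345-80198658 they were 89.7 and 94.9, and 82.0, 94.1 and 72.8. Both starts rank lowest in high-glucose replicate 3. Another region in all 5, at chr7:80232551-80232901, lay at the starts of the neighbours Cib1 and Gdpgp1 and stood at or above the 93.9 percentile of every list.

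Nrp2 and Plxna2 joined the receptors with an open start. Nrp2, the co-receptor that prefers Sema3f, had percentiles of 94.4 and 90.7 in normal glucose and 74.5, 70.8 and 82.0 in high glucose at chr1:62703217-62703614. Plxna2, which binds class 6 semaphorins directly and class 3 through neuropilins, had 65.0 and 83.1, and 66.8, 75.5 and 77.8, at chr1:194619717-194620154. The Plxna2 values overlap between conditions and the Nrp2 values do not, but percentiles are not comparable between lists of different length. How often shared regions of all genes show such an order was not counted. These ranks describe each list and were not tested.

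Nrp1, the co-receptor for Sema3a and for vascular endothelial growth factor, differed from Nrp2 at its start. No library had a peak within 1 kb of the Nrp1 start at RefSeq. A region present in all 5 libraries, at chr8:128357205-128357529, lay 1062 bp outside the gene and beside the start of A930035F09Rik. It stood at the 86.9, 97.5, 88.8, 94.3 and 91.4 percentile, in the order of libraries used above, and ranks high in every list. A second shared region, at chr8:128429022-128429315, lay 70.1 kb into the gene, with percentiles of 73.6, 82.2, 61.2, 64.6 and 33.1.

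**Figure D3:**
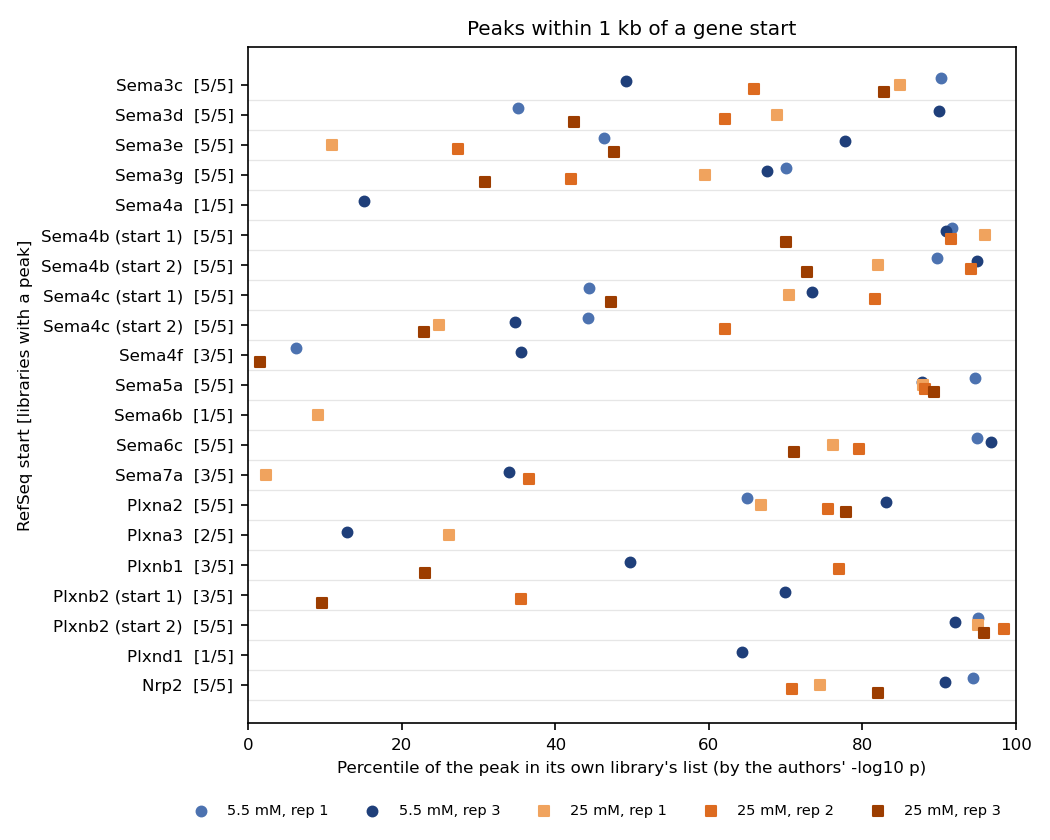
Percentile of the strongest peak within 1 kb of each RefSeq start in its own library's list (horizontal axis, by the authors' −log10 p), 1 row per start with a peak in at least 1 library and 1 point per library. Starts of the same gene are numbered by position. Plxnb2 (start 2) and Sema5a lie above the 87 percentile in every library, while Sema4f, Sema7a and Plxna3 lack a peak in 2 or more.

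Class 3 starts ranked lower and were more uneven. Sema3c, a ligand made in the developing outflow tract, stood at 90.2 and 49.2 in normal-glucose replicates 1 and 3, and at 84.9, 65.9 and 82.8 in high glucose. Its 2 normal-glucose libraries lie at the ends of that range. Sema3d ran from 35.2 to 90.0, both in normal glucose, and its high-glucose values of 68.9, 62.1 and 42.5 lay between them. Sema3e, a repellent for vessels, had 46.3 and 77.7, then 10.9, 27.4 and 47.6, so that in high-glucose replicate 1 the start peak was near the foot of the list. For Sema3g the values were 70.1 and 67.6, then 59.5, 42.0 and 30.8, the same untested order as at the starts of Nrp2 and Sema6c. Percentiles are not comparable between lists of different length, and how often shared starts of all genes show that order was not counted.

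Sema4c, a ligand of Plxnb2, had the least settled start. Over its RefSeq starts a region of 713 bp, chr1:36557202-36557914, was present in all 5 libraries but only at the 7.49 and 21.6 percentile in normal glucose and 24.9, 62.1 and 22.9 in high glucose. The summits of its peaks were 389 bp apart, the widest spread among the 34 shared regions. A neighbouring region at chr1:36556581-36556871, also within 1 kb of a start, was tighter, with summits within 28 bp. It ranked higher, at 44.4 and 73.5 in normal glucose and 70.4, 81.7 and 47.2 in high glucose.

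Summit positions were otherwise close. Over the 34 shared regions the highest and lowest summit of the 5 libraries lay a median of 51 bp apart, against 64 bp over all 12321 regions present in all 5. In 17 of the 34 the spread was at most 50 bp, beside 39.0% of all such regions. It was 10 bp at the second Sema4b start, 11 bp at Sema5a and 16 bp at the first Sema4b start. By place, the median spread was 40 bp at the members' own starts, 58 bp inside genes and 123 bp at the starts of other genes.

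Reproducibility also differed by place. Of 25 regions at the members' own starts 13 (52.0%) were in all 5 libraries, much as 50.4% of all regions at protein-coding starts were. Of 99 regions inside the genes 13 (13.1%) were, beside 16.5% of all regions elsewhere. Of those 99, 41 were seen in just 1 library, whichever it was (41.4%), beside 46.0% of all regions elsewhere. For Plxna1, Plxna4, Sema3b, Sema3f and Sema6a no start was listed, so none of their regions could count as at an own start. A region at their true start would count as inside the gene or in another group. The same limit holds for all regions elsewhere, since 17492 of 21887 genes had a listed start. The annotation used gives neither exons nor introns, so regions inside genes could not be placed further.

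The shared regions inside genes mostly ranked lower than those at starts. Their percentile in the weakest library had a median of 23.5, against 65.0 at own starts. The inside set takes in members without a listed start, such as Sema6a and Plxna1, whose own starts could not be told apart. The 3 highest were those of Sema6a, an A-plexin ligand and receptor, at chr18:47368738-47369154 and at or above the 81.2 percentile, of Sema3g, at chr14:31226925-31227332 and 60.2, and of Plxna1, at 58.6. Sema3b, a secreted ligand often lost in tumours, had a region outside the gene that ranked as high as that of Sema6a, at chr9:107612722-107613055, 3481 bp away and at or above the 83.7 percentile. Its other shared region, at the start of Ifrd2, reached into the window only at its edge, 9832 bp from the gene.

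Receptor genes held further regions in all 5 libraries. In Nrp2 one lay 48.2 kb past the start, at chr1:62751297-62751651, with percentiles of 70.4 and 85.5 in normal glucose and 40.3, 36.8 and 12.1 in high glucose. In Plxna2 one lay 40.8 kb past the start, at chr1:194660486-194660780, and stood at 14.7 and 85.1, then 5.75, 38.6 and 45.6. Plxna1, the receptor that pairs with Nrp1, held one at chr6:89344961-89345296 with 80.4 and 87.4, then 68.7, 88.2 and 58.6. Plxnb2 held a second at chr15:89169427-89169800, with 65.1 and 89.0, then 44.7, 78.6 and 64.9. Plxna4 held one of its 9 regions in all 5, at chr6:32397085-32397404, which fell to the 14.2 percentile in high-glucose replicate 3.

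Shared regions also lay inside or near ligand genes, away from any start listed for them. In Sema3e the one at chr5:14073189-14073438, 48.0 kb past the start, stood at 41.0 and 82.5 in normal glucose and at 81.8, 83.3 and 77.0 in high glucose, and so ranked above the start itself in all libraries but normal-glucose replicate 1. In Sema5a a second one lay 78.2 kb past the start, with percentiles of 21.9 and 56.5, then 79.2, 80.1 and 34.4. Sema3f, the Nrp2 ligand, held a pair at chr9:107701739-107701946 and chr9:107709764-107710128, whose weakest libraries stood at the 20.6 and 20.4 percentile. The second lay close to the edge of the annotated gene, which ends at position 107710475. No start of Sema3f was listed, so whether that region lies at a start is unknown. Sema6d, a membrane-bound ligand, held 1 at chr2:124610185-124610626, at the 23.5 percentile in the weakest library. That of Sema4f, of class 4, lay 2439 bp outside the gene and at 24.9.

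**Figure D4:**
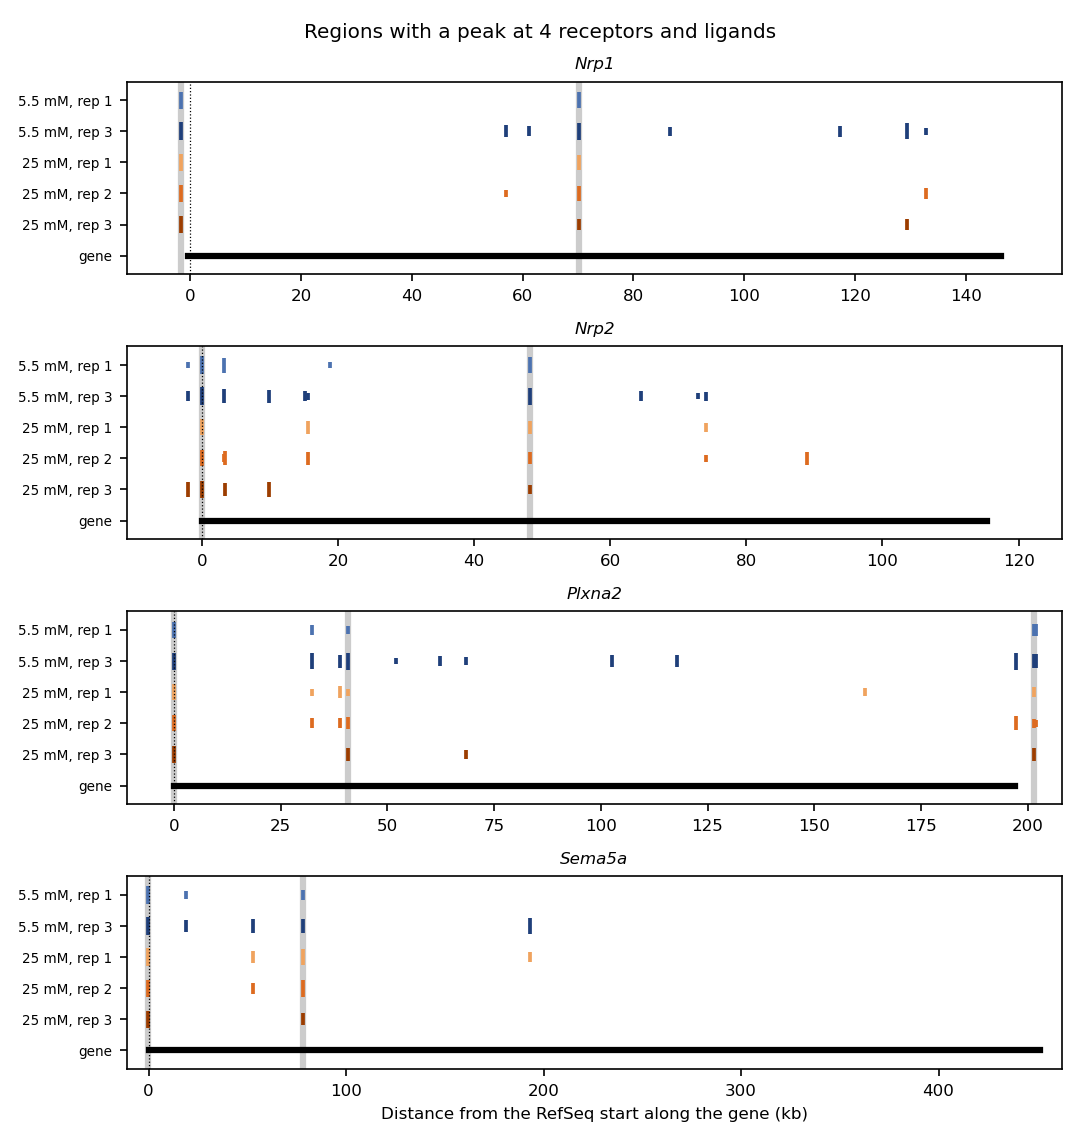
Regions with a peak (ticks, longer where the peak's percentile in its list is higher) in each library at Nrp1, Nrp2, Plxna2 and Sema5a, by distance from the RefSeq start (kb); the black bar is the gene, the dotted line its start, and grey bands mark regions present in all 5 libraries. Nrp2, Plxna2 and Sema5a have a band at the start and Nrp1 has one 1.71 kb before it, and many other ticks stand in normal-glucose replicate 3 alone.

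Promoter windows of the family (250 bases before to 50 after a start) were rich in G and C. The median GC content was 65.3% for the 13 starts with a peak in all 5 libraries and 60.5% for the 16 with none, beside 63.3% and 49.3% over all protein-coding starts. Among the open starts Sema3d and Sema3e were the poorest, at 49.7% and 50.7%, and Sema3c the richest, at 75.7%. The motif GGGCGG, the GC box bound by Sp and Klf factors, was present on either strand in 27 of 37 windows (73.0%), beside 46.2% of 21263 windows of all protein-coding genes. It was in 12 of the 13 open windows, all but that of Sema3d, and in 8 of the 16 without a peak. Over all genes those shares were 73.3% and 21.8%.

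Other motifs were less common in these windows. The TATA motif TATAAA was in 0 of 37, beside 12.6% of all windows, and CCAAT, bound by NF-Y, in 7 (18.9%), beside 38.2%. The AP-1 motif TGANTCA was in 3 (8.11%), beside 6.99%, at Sema4c, Sema4d and Sema6b. The E-box CACGTG was in 3 as well, at Sema3e, Sema4b and Sema6d, beside 7.84%, the TEAD motif GGAATG in 3, beside 13.6%, and the CRE TGACGTCA in 0, beside 2.23%. Both strands were searched, and none of these motifs holds another. A match is a run of letters and not a bound site.

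**Figure D5:**
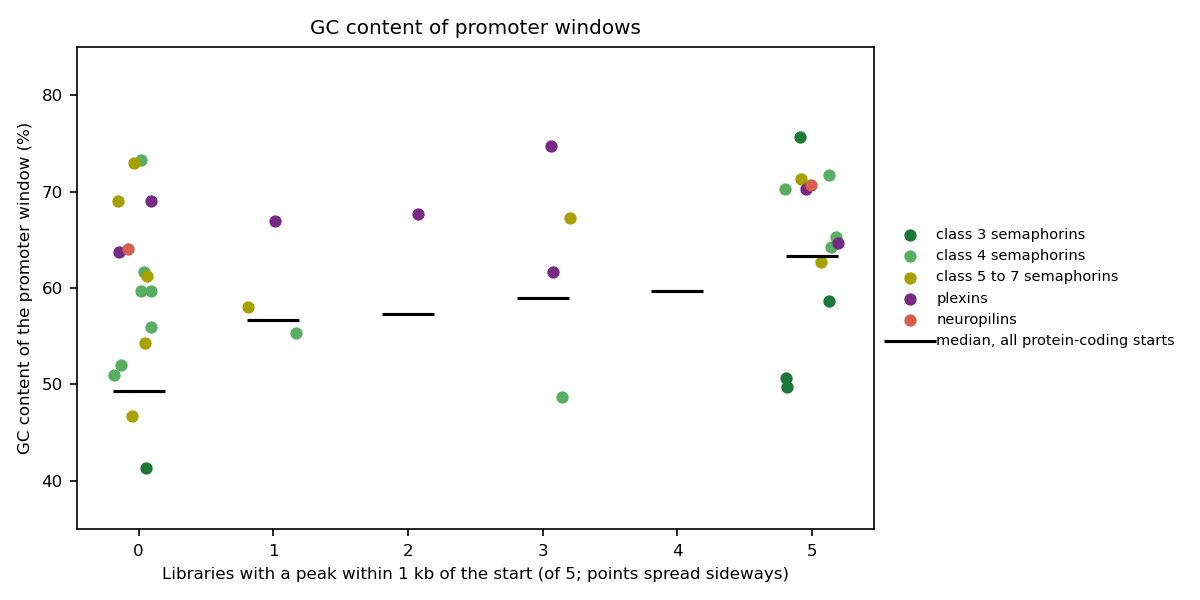
GC content of the promoter window of each RefSeq start (vertical axis, %) against the number of libraries with a peak within 1 kb (horizontal axis), with points coloured by class and bars for the median of all protein-coding starts. Open starts lie mostly above 60%, apart from Sema3d, Sema3e and Sema3g, and the window of Sema3a without a peak is the lowest, at 41.3%.

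Between glucose conditions, no region at these genes was shared by the 3 high-glucose libraries while missing from normal glucose (0 of 151), beside 0.167% of all regions. The opposite, a region that both normal-glucose libraries held and high glucose lacked, was found at 8 of 151 (5.30%), beside 3.73% of all regions. So 8 of 31 genes (25.8%) had a normal-glucose region, beside 7.53% of all genes, and 0 had a high-glucose one, beside 0.420%; longer windows have more chances to hold one. The 8 genes were Sema3a, Sema3f, Sema4a, Sema4c, Sema5a, Sema6d, Plxna4 and Plxnc1, with 1 region each. Normal-glucose replicate 3 has by far the longest list and also held 36 of the 53 member regions seen in a single library (67.9%), beside 59.4% of all such regions. The count of 8 was 45 without replicate 1 of normal glucose and 13 without its replicate 3. Leaving out replicate 2 of high glucose gave 14, and leaving out its replicate 3 gave 13. With a library left out, fewer libraries must hold or lack the peak, which by itself lets the count rise. No share of all regions under that looser rule is given here. With every list cut to 22149 peaks the counts were 4 normal-glucose and 2 high-glucose regions of 112 (3.57% and 1.79%), beside 1.62% and 0.956% of all regions. At equal length, under the same looser rule, the count of 4 became 9 without normal-glucose replicate 1 and 14 without replicate 3. That of 2 became 3 in either case. Of the 112 regions 32 were in all 5 libraries, beside 30.1% of all regions.

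The 8 normal-glucose regions were narrow, from 90 to 227 bp, and mostly low to middling in rank. Their percentiles ran from 10.9 to 75.6 (median 47.6) in normal-glucose replicate 1 and from 20.0 to 59.2 (median 33.1) in replicate 3. Plxnc1, the receptor for Sema7a, had just 1 region in all, at chr10:94919686-94919792, 25.1 kb past its start, at the 57.6 and 24.5 percentile of normal-glucose replicates 1 and 3. For Plxna4, an A plexin of the nervous system, it was chr6:32570606-32570772, at 75.6 and 42.7. For Sema3f it was chr9:107714436-107714662, 3961 bp outside the gene, at 54.5 and 59.2, and for Sema4a, a ligand on immune cells, chr3:88467258-88467386, 6076 bp outside, at 50.8 and 46.9. These last 2 were the ones still found in normal glucose alone with equal lists.

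The other 4 were at Sema4c, Sema3a, Sema5a and Sema6d. The Sema4c region, chr1:36558251-36558366, was the single one at a start, with percentiles of 44.3 and 34.7. At Sema3a it was chr5:13150045-13150134, at 19.3 and 31.5, and at Sema5a chr15:32263741-32263918, at 10.9 and 31.5. At Sema6d, a ligand known from cardiac morphogenesis, it was chr2:124599190-124599297, at 19.3 and 20.0. With equal lists none of these, nor those of Plxna4 and Plxnc1, kept the pattern. The other 2 normal-glucose regions at equal length, in Nrp2 (chr1:62706450-62706568) and Plxna2 (chr1:194821772-194821968), had a peak of high-glucose replicate 2 in the full lists. The 2 high-glucose regions at equal length were at Sema4c, in a region all 5 full lists held, and Sema6a (chr18:47254665-47254895), which normal-glucose replicate 3 also held in full.

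Peak numbers per gene also depended on list length. In 5 of 31 members (16.1%) both normal-glucose libraries had more peaks than any high-glucose library, beside 6.44% of all genes, and the reverse held for 0 members, beside 0.270%. They were Plxna4 (5 and 8 peaks in normal glucose, then 4, 3 and 3 in high), Sema3c (3 and 3, then 2, 2 and 1), Sema4a (1 and 2, then 0, 0 and 0), Sema5b (2 and 2, then 1, 0 and 1) and Plxnc1 (1 and 1, then 0, 0 and 0). For each the exact permutation test over the 5 libraries gave p = 0.2, two-sided, which is the smallest p that 2 against 3 libraries allow. With equal lists Sema4a alone kept the order, at 1 and 1 against 0, 0 and 0 peaks, beside 1.83% of all genes. That count of 1 became 4 without normal-glucose replicate 1 and 5 without replicate 3, and the 5 as deposited became 21 once normal-glucose replicate 1 was left out, or 9 if replicate 2 of high glucose was. With fewer libraries this order is easier to meet, and no share of all genes under the looser rule is given here.

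With equal lists Nrp2 took the opposite order. It had 3 and 3 peaks in normal glucose and 4, 5 and 5 in high glucose (p = 0.2, exact permutation test, two-sided), beside 1.55% of all genes. Nrp2 was the 1 member in this order, and 3 or 2 were without normal-glucose replicate 1 or 3, where fewer libraries must keep it. As deposited it had 5 and 10, then 4, 7 and 5, and the groups overlapped. The order at Nrp2 was thus seen with shortened lists and not as deposited. In the full lists the mean number of peaks was lower in high glucose for 26 members, higher for 3 and equal for 2. Over all genes with a peak 66.5% were lower and 18.3% higher. With equal lists 14 members were lower, 13 higher and 4 equal, beside 36.0% lower and 39.1% higher over all genes with a peak.

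Summed over the family, peak numbers followed list length. As deposited, 69 and 132 peaks lay at the members in normal glucose and 61, 77 and 62 in high glucose. As a share of the list that was 0.306% ± 0.0302 in normal glucose (SD, n = 2) and 0.286% ± 0.0190 in high glucose (SD, n = 3). The difference of -0.0199 percentage points is smaller than the SD of the normal-glucose pair. It was -0.0428 with peaks of a −log10 q of at least 5, -0.0413 without normal-glucose replicate 1 and 0.00143 without normal-glucose replicate 3. With equal lists the numbers were 60 and 62 in normal glucose and 61, 62 and 61 in high glucose. By class, class 3 semaphorins had 17 and 21 peaks, then 17, 16 and 17, and plexins 15 and 19, then 14, 15 and 17. Neuropilins had 5 and 6, then 6, 8 and 8.

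Genes that pass on or modify the signal were read from a list of 36, which included adaptors, GTPases, kinases and co-receptors. Of these 29 had a peak in all 5 libraries, beside 53.2% of all genes, and 16 of 28 with a RefSeq start had one there, beside 38.5%. Their windows (gene plus both flanks) ran from 23.6 kb at Cfl1 to 296 kb at Nrcam, where the median of all genes was 37.2 kb. Longer windows have more chances to hold a peak, and the shares in this paragraph were not matched for length. Open at the start were the small GTPases Rhoa, Rras and Rap1b, the exchange factors Arhgef11, Arhgef12 and Farp2, and the kinases Limk1, Limk2 and Fyn. L1cam, a neural adhesion molecule and co-receptor of Sema3a, had no peak in any library, and Crmp1, a collapsin response mediator of neurons, had one in 1. In both normal-glucose libraries above all high-glucose ones stood 10 of the 36, among them Farp1 and Mical3, beside 6.44% of all genes. Those genes include the 27.6% with no peak in any library, which cannot take this order. Rhoa alone was the reverse, with 3 and 3 peaks against 4, 4 and 4, beside 0.270%. With equal lists 2 stood each way: Limk2 and Ptprc higher in normal glucose, Rhoa and Farp2 in high glucose, beside 1.83% and 1.55% of all genes.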

How the data were processed

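Peak lists of 6 ATAC-seq libraries were analysed. The submitters' processing notes name the build mm10 and, without role or setting, these tools: MACS2 2.1.0, DiffBind 1.12.3, edgeR, Bowtie 1.0.0, Picard 1.90, cutadapt 1.0, SAMtools 0.1.19 and FastQC. For duplicates, mitochondrial reads and the transposase offset, the handling was not given in the sources used here. Each deposited list gives the authors' score, fold enrichment ratio, and a −log10 p-value and a −log10 q-value per peak. The lists were taken as 1 per library, as far as the files show.

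Genes and starts came from RefSeq (GRCm38.p6). Overlapping peaks (1 bp or more) of the nuclear chromosomes were joined into regions. Presence was compared between libraries, and peak numbers per gene by exact permutation tests, two-sided. The members, the lists and the rules were chosen with earlier results of these data known. Described in full were genes with condition-only regions, with peak numbers that did not overlap between conditions or with no peak, and the 8 with the most shared regions, which a tie made 11. For named regions and printed promoters, the one whose weakest library ranked highest was taken per class; other shared regions and the pathway genes named were chosen after their values were seen. Alternatives were a −log10 q of at least 5, equal lists of 22149 peaks, flanks of 0 and 2 kb, all 6 libraries, each library left out, merging within 200 bp and same-numbered libraries as pairs. SciPy 1.17.1, pandas 2.3.3, matplotlib 3.10.9 and numpy 2.4.6 were run under Python 3.11.15, and region calls were tested on simulated data.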

Additional observations from a re-analysis of the deposited data

How the results depend on the processing

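The count of 21 genes open in all 5 libraries fell to 16 at a −log10 q of at least 5 (where the share difference was -0.0428), 17 without flanks and 18 with 2 kb, was 21 with equal lists, and ranged from 21 to 22 with a library left out. With all 6 libraries it was 0, since the sixth list has no peak at these genes, and so were the counts of normal-glucose regions and of genes with more peaks in normal glucose; the difference in share then became 0.0820 percentage points, from -0.0199. Lists of equal length gave 4 normal-glucose and 2 high-glucose regions, and 1 gene with more peaks in each condition, against 8, 0, 5 and 0 as deposited, and a share difference of 0.00150. Leaving out a library gave 10 to 45 normal-glucose regions, 0 to 3 high-glucose regions, 5 to 21 genes with more peaks in normal glucose, 0 to 1 in high glucose, and share differences from -0.0413 to 0.00143. Calls over fewer libraries are looser, so these counts of regions and genes can rise for that alone. No share over all regions or genes under the looser rules is given. The 45 regions and 21 genes were found without normal-glucose replicate 1, where the longest list is the sole one of its condition; without normal-glucose replicate 3 the counts were 13 and 5. Without high-glucose replicates 2 and 3 there were 14 and 13 normal-glucose regions, and without replicate 2 there were 9 genes. Equal lists without normal-glucose replicate 1 or 3, chosen after seeing the data, gave 9 and 14 normal-glucose regions, 3 high-glucose regions each, 4 and 5 genes with more peaks in normal glucose, 3 and 2 in high glucose, and share differences of -0.00301 and 0.00602. Taking same-numbered libraries as pairs (a replicate block of replicates 1 and 3) gave 11 genes lower and 0 higher in high glucose in both pairs, and a share difference of -0.0309. That rule leaves out high-glucose replicate 2 and compares within pairs alone, and no share of all genes under it is given. Over 49048 regions the deviations of same-numbered libraries had r = -0.0140 and 0.0144, and a number is all they share in the labels. With 2 normal-glucose libraries their deviations mirror each other. The r values are thus not independent and cannot decide whether same-numbered libraries belong together. Merging within 200 bp gave 7 normal-glucose regions, and requiring a peak to cover 50% of the region, chosen after seeing the data, gave 11. As planned, that requirement could also be met by the region covering 50% of the peak, which a merged region always does. Depth is unknown, so what a longer list adds cannot be separated from glucose.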

Other observations

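Just outside the 10 kb flank lay a region present in all 5 libraries at 575 bp beyond the window of Sema4a and another at 972 bp beyond that of Sema3g, and a region present in 4 libraries at 395 bp beyond that of Sema3b. Had the window been wider, Sema4a would have counted as open in all 5 libraries.

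Peaks at the family ranked below the middle of each list. Their median percentile was 46.3 and 42.9 in normal-glucose replicates 1 and 3, and 40.3, 40.7 and 36.8 in high-glucose replicates 1, 2 and 3. This is a description of each list.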
